A study of Mus musculus with 6 samples.

Results

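The aryl hydrocarbon receptor pathway genes described here are 8 genes, chosen by name, of the 46078 gene rows in the count table: the receptor Ahr, its partner Arnt, its repressor Ahrr, the target genes Cyp1a1, Cyp1b1, Tiparp and Nqo1, and the tryptophan-degrading enzyme Ido1. The deposited symbols identified 6 of them, and the Ensembl identifier was used for Cyp1a1 and Cyp1b1. Of the 8 genes, 6 passed the filter on low counts and were tested, and 2 did not pass it, Cyp1a1 and Cyp1b1. RNA came from the fraction of cells that a wash with EDTA and DTT released from the colon of unchallenged mice aged 2 months, wild type or Lingo2-/-, with 3 libraries of each genotype. The labels do not describe the Lingo2-/- allele or the background strain. Whether each numbered replicate was its own animal is not stated, so the p-values speak only for spread among 6 libraries, and this spread may be technical. The question is how the transcripts of the pathway compare between mice with Lingo2, a membrane protein with leucine-rich repeats, and mice without it.

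The aryl hydrocarbon receptor waits in the cytoplasm with a chaperone complex until it binds a ligand, among them tryptophan metabolites and plant indoles in the gut. It then enters the nucleus, pairs with ARNT and binds the dioxin response element in its target genes, whose best known product is the cytochrome P450 enzyme CYP1A1. AHRR competes for ARNT, and TIPARP modifies the receptor, so both act as feedback inhibitors. In the gut the receptor is needed by intraepithelial lymphocytes and innate lymphoid cells, and it also acts in epithelial cells.

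Of the 6 tested genes, 2 fell in the mutant libraries, the repressor Ahrr with a log2 fold change of −1.36 ± 0.27 and the enzyme Ido1 with one of −1.503 ± 0.28 (SE, n = 3 per genotype), and none rose. The receptor Ahr (−0.08 ± 0.12) and its partner Arnt (−0.05 ± 0.09) did not pass the test, nor did the targets Tiparp (−0.20 ± 0.11) and Nqo1 (−0.18 ± 0.18). The call rests on edgeR's quasi-likelihood test with the Benjamini-Hochberg adjustment over all 16757 genes tested, at a threshold of 0.05. Over all of these genes 2.57% changed, 1.52% lower and 1.04% higher. Of the same 16757 genes 3125 had an unadjusted p under 0.05, and DESeq2 called 657. The median log2 fold change of the 6 tested genes was −0.19, against 0.001 over all genes tested. The count was 1 when replicate 2 of either genotype was left out, and 0 when the omitted library was mutant replicate 1 or 3.

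Promoters are shown for 3 genes that the receptor regulates, the repressor that fell (Ahrr), a feedback gene that did not pass the test (Tiparp) and the classic target that was near the limit of detection (Cyp1a1). They run from 250 bases before to 50 bases after the RefSeq transcription start on build GRCm38.p6, and are written 5′ to 3′ on the strand of the gene. Capitals mark the core of the dioxin response element, GCGTG, or its reverse complement CACGC. Overlapping matches were counted.
Ahrr, chr13:74292282-74292581, minus strand: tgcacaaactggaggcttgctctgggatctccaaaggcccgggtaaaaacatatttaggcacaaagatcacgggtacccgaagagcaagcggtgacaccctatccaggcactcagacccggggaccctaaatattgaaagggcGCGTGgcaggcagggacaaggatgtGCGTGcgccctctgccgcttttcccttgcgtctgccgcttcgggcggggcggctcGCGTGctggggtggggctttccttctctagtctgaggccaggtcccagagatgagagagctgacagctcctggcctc
Tiparp, chr3:65528197-65528496, plus strand: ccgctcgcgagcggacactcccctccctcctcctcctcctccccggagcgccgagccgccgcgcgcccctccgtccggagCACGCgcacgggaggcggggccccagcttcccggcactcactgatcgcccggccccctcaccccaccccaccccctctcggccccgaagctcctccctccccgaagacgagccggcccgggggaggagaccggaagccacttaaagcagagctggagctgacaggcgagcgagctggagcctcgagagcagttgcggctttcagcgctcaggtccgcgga
Cyp1a1, chr9:57697363-57697662, plus strand: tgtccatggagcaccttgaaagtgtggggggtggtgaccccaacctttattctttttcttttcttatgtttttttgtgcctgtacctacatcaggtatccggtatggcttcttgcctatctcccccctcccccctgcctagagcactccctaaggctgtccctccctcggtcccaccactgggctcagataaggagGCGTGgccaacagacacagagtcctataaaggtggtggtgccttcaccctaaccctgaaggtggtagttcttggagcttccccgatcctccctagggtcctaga

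The Ahrr window held 3 cores on the strand of the gene, which begin at positions −107, −82 and −27 from the start site. The Tiparp window held 1 at −170 on the other strand, and the Cyp1a1 window 1 at −54. Arnt and Cyp1b1 also had 1 each and Nqo1 had none. RefSeq promoters were found for these 6 genes. Among 32851 promoters of the same length 32.4% held the core at least once and 3.91% held it 3 times or more. The core contains a CpG, and the Ahrr window had 17 CpG dinucleotides against a median of 7. The other windows had 34 (Tiparp), 19 (Arnt), 16 (Cyp1b1), 5 (Nqo1) and 4 (Cyp1a1). Whether CpG content bears on the number of cores was not tested. A match of letters describes the sequence and does not show binding, and distal elements lie outside these windows.

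The libraries differed in depth. Wild type libraries held between 25010618 and 28029583 gene reads and mutant libraries between 7060769 and 13047682, and the mutant values of weakly expressed genes are therefore less precise. Levels are given in CPM (counts per 1000000 gene reads) after TMM scaling of the library sizes. Where a gene had no read, up to 3 reads remain possible, or between 0.112 and 0.138 CPM in a wild type and between 0.207 and 0.374 CPM in a mutant library (counting error only). The mitochondrial share of gene reads was between 45.3% and 48.4% in wild type and between 35.7% and 39.8% in the mutant. Reads of Lingo2 itself were too few to check the genotype labels, 0, 7 and 0 in wild type and 1, 1 and 0 in the mutant.

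**Figure D1:**
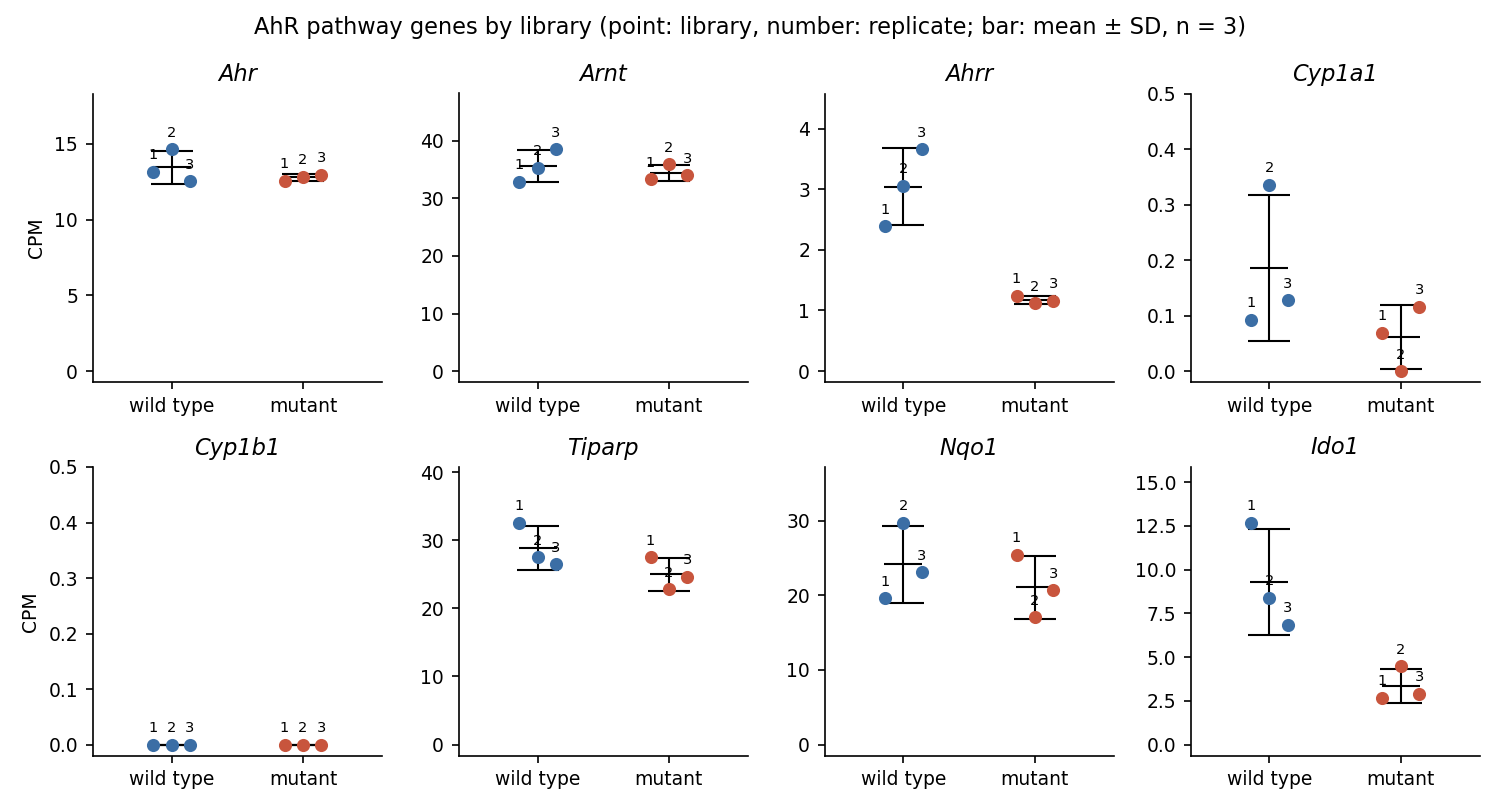
Level of each of the 8 genes in each library, in CPM on a linear axis (points, with the replicate number; horizontal bars, mean ± SD of 3 libraries per genotype). Ahrr and Ido1 lie lower in every mutant library than in any wild type library, whereas the other 6 genes overlap, with Cyp1b1 at 0 throughout. The share of all genes whose groups do not overlap was not counted, so this separation has no background to be set against.

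The receptor came first in the pathway and hardly varied between the libraries. Ahr (chromosome 12, 35497974 to 35535038, minus strand, GRCm38) stood at 13.2, 14.7 and 12.5 CPM in wild type replicates 1, 2 and 3 and at 12.6, 12.8 and 13.0 CPM in the mutant. The groups overlapped, and all 3 mutant libraries lay within the wild type range. The 95% interval of the log2 fold change ran from −0.33 to 0.18 (edgeR adjusted p = 0.771), so the interval includes falls to 0.795 of the wild type level and rises to 1.13-fold. A lincRNA, Gm48236, overlaps Ahr on the opposite strand, and since the strand setting of the counting is not given in the sources used here, reads from both could not be told apart.

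Arnt, the partner that Ahr shares with the hypoxia-inducible factors (chromosome 3, 95434388 to 95497240, plus strand), was the more abundant of the pair per kilobase of exon (4.45 ± 0.355 against 2.18 ± 0.178 CPM per kb in wild type, SD). Its levels were 32.9, 35.3 and 38.6 CPM in wild type and 33.4, 35.9 and 34.0 CPM in mutant libraries. The groups overlapped (95% interval −0.26 to 0.16, edgeR adjusted p = 0.812), and without wild type replicate 3 the fitted value was 0.0083, on the other side of 0. A processed pseudogene, Gm42672, overlaps Arnt on the same strand.

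The repressor did differ. Ahrr (chromosome 13, 74211118 to 74292331, minus strand) stood at 2.39, 3.06 and 3.66 CPM in wild type and at 1.24, 1.12 and 1.16 CPM in mutant libraries. Every mutant library was below every wild type library (1.17 ± 0.0613 against 3.04 ± 0.636 CPM, SD). These levels rest on 52, 82 and 86 reads in wild type and on 18, 9 and 10 reads in the mutant, too few for the mutant SD to be read as a measure of spread. The level was 2.56-fold lower in the mutant (95% interval of the log2 fold change −1.95 to −0.77, edgeR adjusted p = 0.0219). Ahrr was no longer called on leaving out mutant replicate 1 (adjusted p = 0.0641), 2 (0.0829) or 3 (0.0853) or the second wild type library (0.0554), with log2 fold changes between −1.5005 and −1.21 over the 6 omissions. In the authors' deposited table Ahrr had a log2 fold change of −1.36 with an adjusted p of 0.0137. Set against the receptor in the same library, Ahrr was at 0.182, 0.209 and 0.293 of the Ahr CPM in wild type and at 0.0989, 0.0874 and 0.0893 in mutant libraries.

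**Figure D2:**
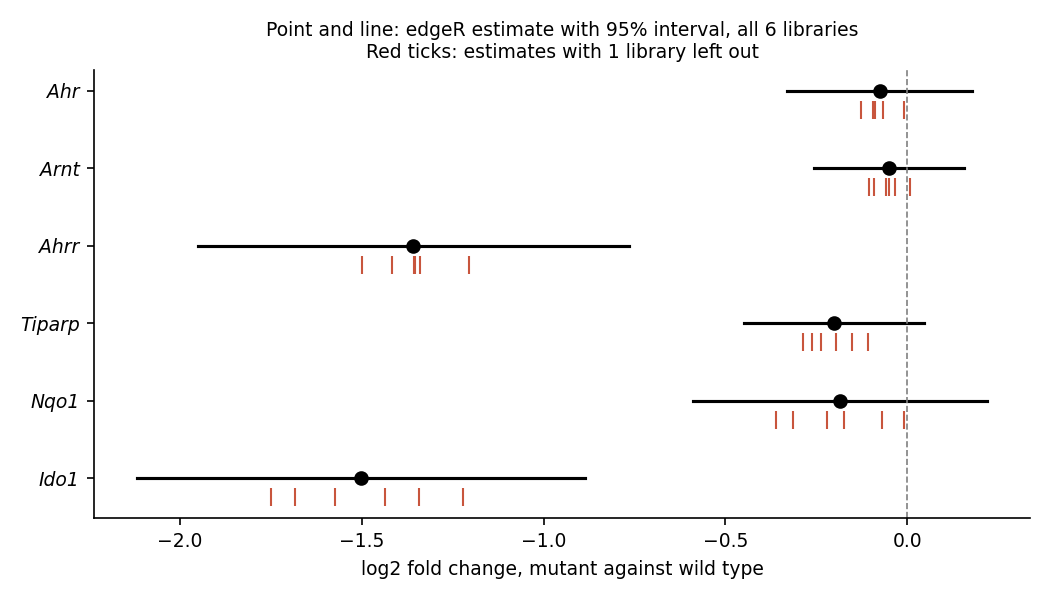
Log2 fold change, mutant against wild type, of the 6 tested genes (points, edgeR estimates; lines, 95% intervals; red ticks, estimates with 1 of the 6 libraries left out). Ahrr at −1.36 and Ido1 at −1.503 have intervals below 0, and the intervals of Ahr, Arnt, Tiparp and Nqo1 include 0.

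Of the targets, the genes of the CYP1 enzymes, which oxidise polycyclic hydrocarbons and the receptor's own ligands, were close to or below detection in both genotypes. Cyp1a1 (chromosome 9, 57687928 to 57703824, plus strand) had 2, 9 and 3 reads in wild type and 1, 0 and 1 in mutant libraries. Wild type replicate 2 holds most of these reads, and the groups overlapped in CPM. The pooled level was 0.194 CPM for wild type, with an exact 95% Poisson interval from 0.106 to 0.326, and 0.0642 CPM for the mutant, from 0.00777 to 0.232, intervals that overlap and cover counting error only. With no filter on low counts the fitted log2 fold change of Cyp1a1 was −1.4996 (edgeR adjusted p = 0.598), and no difference could be detected with so few reads. Cyp1b1 (chromosome 17, 79701537 to 79715061, minus strand) had 0 reads in all 6 libraries, which allows up to 0.0416 CPM over the wild type and 0.0962 CPM over the mutant libraries pooled.

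Tiparp and Nqo1 were readily measured. Tiparp (chromosome 3, 65528410 to 65555518, plus strand), a mono-ADP-ribosyltransferase that is induced by the receptor and limits it, stood at 32.6, 27.5 and 26.5 CPM in wild type and at 27.5, 22.8 and 24.6 CPM in mutant libraries. Mutant replicate 1 reached the wild type levels and the other mutant libraries were below them. The 95% interval ran from −0.45 to 0.05 (edgeR adjusted p = 0.369). A transcribed pseudogene, 4931440P22Rik, overlaps Tiparp on the opposite strand. Nqo1 (chromosome 8, 107388225 to 107403206, minus strand), a quinone reductase that responds to both the receptor and the oxidant sensor NRF2, varied more between libraries of 1 genotype than between genotypes, with 19.6, 29.8 and 23.1 CPM in wild type and 25.4, 17.1 and 20.7 CPM in the mutant. The 95% interval ran from −0.59 to 0.22 (edgeR adjusted p = 0.624).

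Ido1 (chromosome 8, 24584136 to 24597009, minus strand) turns tryptophan into kynurenine, a ligand of the receptor, and is itself induced by interferon gamma. It stood at 12.7, 8.39 and 6.86 CPM in wild type and at 2.69, 4.49 and 2.89 CPM in mutant libraries. The highest mutant library, replicate 2, was below the lowest wild type library, replicate 3. The level was 2.84-fold lower in the mutant (95% interval of the log2 fold change −2.12 to −0.89, edgeR adjusted p = 0.0195). The call ended without mutant replicate 1 (adjusted p = 0.0896) or mutant replicate 3 (0.116), with log2 fold changes from −1.75 to −1.22 over the 6 omissions. The authors' deposited table gave −1.49 with an adjusted p of 2.57e-05. Within wild type the order of the libraries was opposite for the genes that fell, since replicate 1 had the most Ido1 and the least Ahrr.

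Levels of different genes were compared per kilobase of exon, in CPM per kb over the merged exons of GENCODE M21. In wild type libraries Nqo1 was the highest (15.6 ± 3.31 CPM per kb, SD), followed by Tiparp (6.62 ± 0.755), Ido1 (5.10 ± 1.66), Arnt (4.45 ± 0.355), Ahr (2.18 ± 0.178), Ahrr (0.322 ± 0.0674), Cyp1a1 (0.0664 ± 0.0472) and Cyp1b1 (0). Ido1 overlapped both of its neighbours, from 3.76 to 6.96 CPM per kb, and the other neighbours in this order did not overlap, though Cyp1a1 had only 2 and 3 reads in replicates 1 and 3. In mutant libraries Ido1 moved from the third to the fifth place (1.84 ± 0.540 CPM per kb), where its range overlapped that of Ahr (2.07 ± 0.0341). Nqo1, Tiparp, Arnt, Ahr and Ahrr kept their order in the mutant libraries, with Ahrr at 0.124 ± 0.00649 CPM per kb. The order of Cyp1a1 and Cyp1b1 was not resolved there, since both had 0 reads in mutant replicate 2.

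Cell type markers moved between the same libraries. All 12 listed markers of T cells and intraepithelial lymphocytes fell, by log2 fold changes from −2.42 to −1.17 (median −1.81), and their summed level was 339 to 394 CPM in wild type and 86.9 to 116 CPM in mutant libraries, with no marker at 0 in either genotype. The 6 with the smallest p were Cd7 (−2.08), Cd3g (−1.99), Nkg7 (−1.84), Itgae (−1.17), Trac (−1.77) and Gzma (−2.42). Of 11 macrophage and dendritic cell markers 7 were tested, with a median log2 fold change of −0.33. Summed levels over all 11 were 29.9 to 33.0 CPM in wild type and 17.6 to 24.4 CPM in mutant libraries. Of the 7 tested, 3 fell, Itgax (−0.99), Tyrobp (−1.11) and Ccr2 (−1.03). That count was 0 on leaving out replicate 2 of either genotype or mutant replicate 3, and 1 on leaving out mutant replicate 1 or the third wild type library, and Ccr2 was called in none of the 6 omissions. With the replicate number as a block none of these genes was called (adjusted p = 0.0558 for Itgax, 0.0634 for Tyrobp and 0.0723 for Ccr2), and with limma voom Tyrobp alone was (0.0472). The remaining tested markers of this list, outside the rule for named genes, were not called. They were Csf1r (−0.24), Adgre1 (0.05), Cd68 (−0.11) and Cx3cr1 (−0.33). Fibroblast and endothelial markers summed to 990.0, 895 and 344 CPM in wild type replicates 1, 2 and 3 and to between 239 and 510 CPM in the mutant, so that wild type replicate 3 stood apart from the others and lay within the mutant range. Of 10 tested, 9 had log2 fold changes below 0, with a median of −1.04, and of these Mfap5 (−1.75) was called. The endothelial marker Vwf (0.96) rose, while the endothelial markers Pecam1 (−0.16) and Kdr (−0.77) were not called, nor was the collagen gene Col3a1 (−1.49), all 3 chosen after their values were seen. Neither Mfap5 nor Vwf was called on leaving out replicate 2 of either genotype or mutant replicate 3. Replicate 1 of wild type also ended the call of Mfap5 when left out, and replicate 1 of the mutant that of Vwf. The defining markers of epithelium summed to 7254 to 7932 CPM in wild type and 6367 to 7320 CPM in the mutant, and none of 12 was called (1 at an unadjusted p under 0.05, and 0 by DESeq2). The 2 with the smallest p were Cdh1 (−0.29) and Krt20 (−0.30). Of the innate lymphoid markers 3 of 6 were tested and none was called (2 at an unadjusted p under 0.05, and 0 by DESeq2), Il7r at −0.55 and Kit at 0.27, and Il22, whose product depends on the receptor, had 1 read in all 6 libraries.

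Against the summed T cell markers of the same library, Ahrr amounted to 0.705%, 0.780% and 0.929% in wild type and to 1.07%, 1.11% and 1.33% in mutant libraries. All 3 mutant shares of Ahrr were above all 3 wild type shares, a difference that was not tested. The share depends on which markers weigh most in the sum. In wild type the largest was Gzma (102 CPM), which fell most (log2 fold change −2.42). Itgae (−1.17) and Cd3e (−1.32), the latter chosen after its values were seen, fell less than Ahrr (−1.36). The other listed markers fell more than Ahrr. The mutant shares rest on only 18, 9 and 10 reads of Ahrr and are imprecise. Ido1 amounted to 3.74%, 2.14% and 1.74% in wild type and to 2.31%, 4.43% and 3.33% in mutant libraries, and these ranges overlap. In bulk RNA, fewer cells of a type and less RNA per cell cannot be told apart, and the part of the cell type markers in the falls of Ahrr and Ido1 was not tested.

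**Figure D3:**
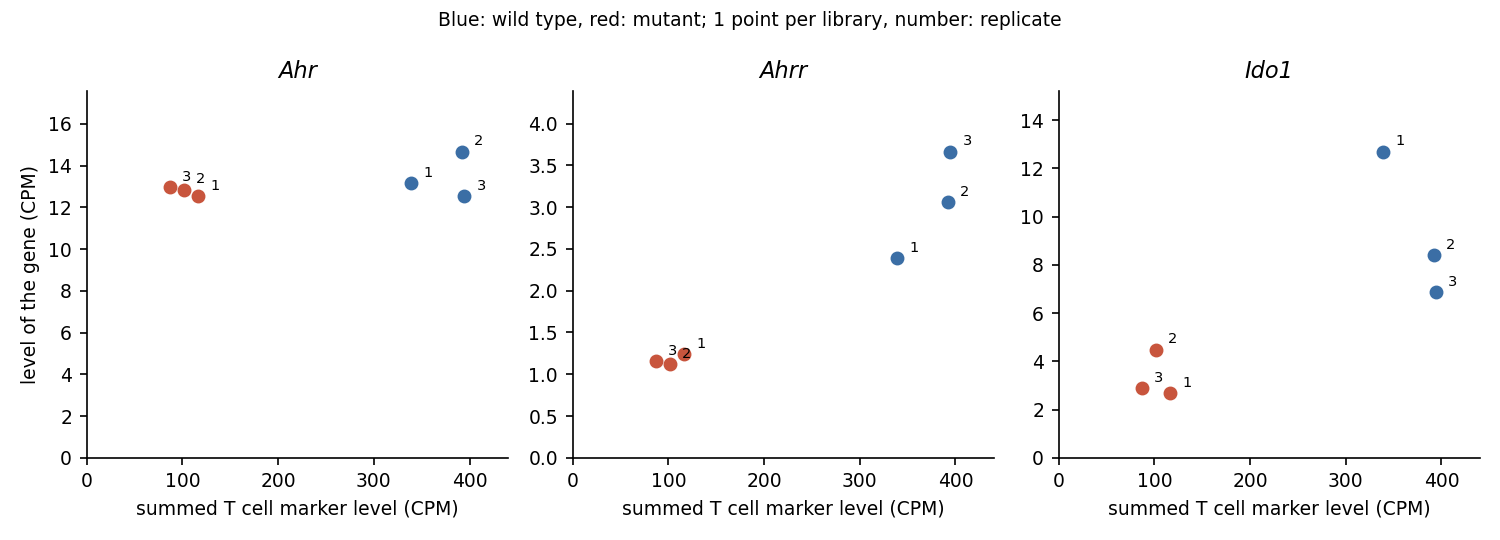
Level of Ahr, Ahrr and Ido1 (vertical axes, CPM) against the summed level of 12 T cell markers (horizontal axes, CPM), 1 point per library, blue for wild type and red for mutant. The genotypes separate along the marker axis, at 339 to 394 against 86.9 to 116 CPM, and Ahrr and Ido1 separate with them whereas Ahr overlaps.

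The genes with the most similar profiles were sought by the root mean square distance between centred log2 CPM profiles over the 6 libraries, among 11765 genes. Closest to Ahrr were Mal, a membrane raft protein (distance 0.068, log2 fold change −1.25 ± 0.15), Cd53, a tetraspanin (0.112, −1.14 ± 0.13) and Gpr171, a G protein-coupled receptor (0.129, −1.25 ± 0.18), where the profile of Ahrr itself varied by 0.66 around its mean. Closest to Ido1, which varied by 0.792, were the endocytic receptor Lrp2 (0.174, −1.36 ± 0.33), the cyclooxygenase Ptgs2 (0.187, −1.41 ± 0.32) and the surface glycoprotein Thy1 (0.205, −1.51 ± 0.17). Of the neighbours of Ido1, Lrp2 was not called (edgeR adjusted p = 0.0941). The call of Ptgs2 ended on leaving out 1 of 4 single libraries. Closest to the nearly flat Ahr (0.076) were Wdr19 (0.008), Flot1 (0.025) and Sh3kbp1 (0.025). Cyp1a1 was too low for a profile.

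The wider pathway was read from 5 lists that leave the 8 genes out, with 97 different genes tested and 1 changed. Of the 97 genes 30 had an unadjusted p under 0.05, against 3125 of all 16757 genes tested. DESeq2 called 10 of the 97, against 657 of all. In the list of the receptor complex and coregulators 18 genes were tested and 1 was called, with a median of −0.04, and that call ended on leaving out 1 of 3 single libraries. The members named here, chosen after their values were seen, were not called. Hsp90ab1, the chaperone that folds around the receptor, was at 0.05 ± 0.12, and the co-chaperone Ptges3 at −0.26 ± 0.12. Arntl, the clock protein of the same family as Arnt, was at −0.15 ± 0.10.

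None of the 15 tested genes in the list of other receptor targets was called, with a median of −0.01 (5 at an unadjusted p under 0.05, and 1 by DESeq2). The smallest p-values belonged to the scaffold protein gene Nedd9 (−0.45 ± 0.12, edgeR adjusted p = 0.0657) and the serpin gene Serpinb2 (−1.46 ± 0.47, edgeR adjusted p = 0.124). Nedd9 passed without wild type replicate 2 (adjusted p = 0.0297). The remaining 4 of the 19 listed targets were below the filter, Cyp1a2, Aldh3a1, Gsta2 and Il22, with 1 read each in all 6 libraries together. Further targets were chosen after their values were seen. The ubiquitin ligase genes Rnf43 (0.23 ± 0.14) and Znrf3 (0.36 ± 0.14), which restrain Wnt signalling in crypts, were not called, nor was Gpr15, a homing receptor of T cells (−0.995 ± 0.35, edgeR adjusted p = 0.154). The glucuronosyltransferase genes Ugt1a6a (−0.07 ± 0.25) and Ugt1a6b (0.17 ± 0.36) share exons, so their split is uncertain.

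The NRF2 battery, the antioxidant genes that share Nqo1 with the receptor, had 25 tested genes and none called, with a median of −0.17 (10 at an unadjusted p under 0.05, and 4 by DESeq2). The aldo-keto reductase gene Akr1b8 was at −0.50 ± 0.13 (edgeR adjusted p = 0.0595) and the glutathione peroxidase gene Gpx2 at 0.77 ± 0.21 (edgeR adjusted p = 0.115). Gpx2 passed without mutant replicate 1 (adjusted p = 0.00882).

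Ido1 was set beside the genes of tryptophan metabolism and of the interferon gamma response. None of 17 tested genes of tryptophan and kynurenine metabolism was called, with a median of −0.003 (5 at an unadjusted p under 0.05, and 1 by DESeq2). The amino acid transporters Slc6a19 (1.06 ± 0.30, edgeR adjusted p = 0.0962) and Slc7a8 (0.93 ± 0.30, edgeR adjusted p = 0.136) had the smallest p-values, and Slc6a19 passed with the replicate number as a block (adjusted p = 0.0269). Below the filter were Qprt, Acmsd and Aadat, which had at most 12 reads in a library. Ido2, the paralogue of Ido1, was at −1.06 ± 0.36 (edgeR adjusted p = 0.139), a gene chosen after its values were seen. Of the 23 listed interferon gamma response genes 22 were tested, and the median was −0.08 and none was called (6 at an unadjusted p under 0.05, and 2 by DESeq2). Gbp2, a guanylate-binding protein gene, stood at 65.9, 47.6 and 40.1 CPM in wild type and at 18.6, 28.9 and 27.9 CPM in the mutant, with a log2 fold change of −1.04 ± 0.24 (edgeR adjusted p = 0.0823). Its groups did not overlap, and it passed without wild type replicate 3 (adjusted p = 0.0243). The immunoproteasome gene Psmb8 was at −0.40 ± 0.11 (edgeR adjusted p = 0.0783). The listed gene below the filter was Ifng, which encodes interferon gamma itself. Ifng had 22, 23 and 12 reads in wild type and 1, 1 and 3 reads in the mutant, or 1.01, 0.858 and 0.511 CPM against 0.0689, 0.125 and 0.347 CPM. The groups did not overlap, and with the filter in place this gene was not tested. With no filter 6 of the 23 listed genes were called, 5 of them lower, where 1493 genes were called over all. For Gbp2 and Ifng, too, the share of all genes whose groups do not overlap was not counted.

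**Figure D4:**
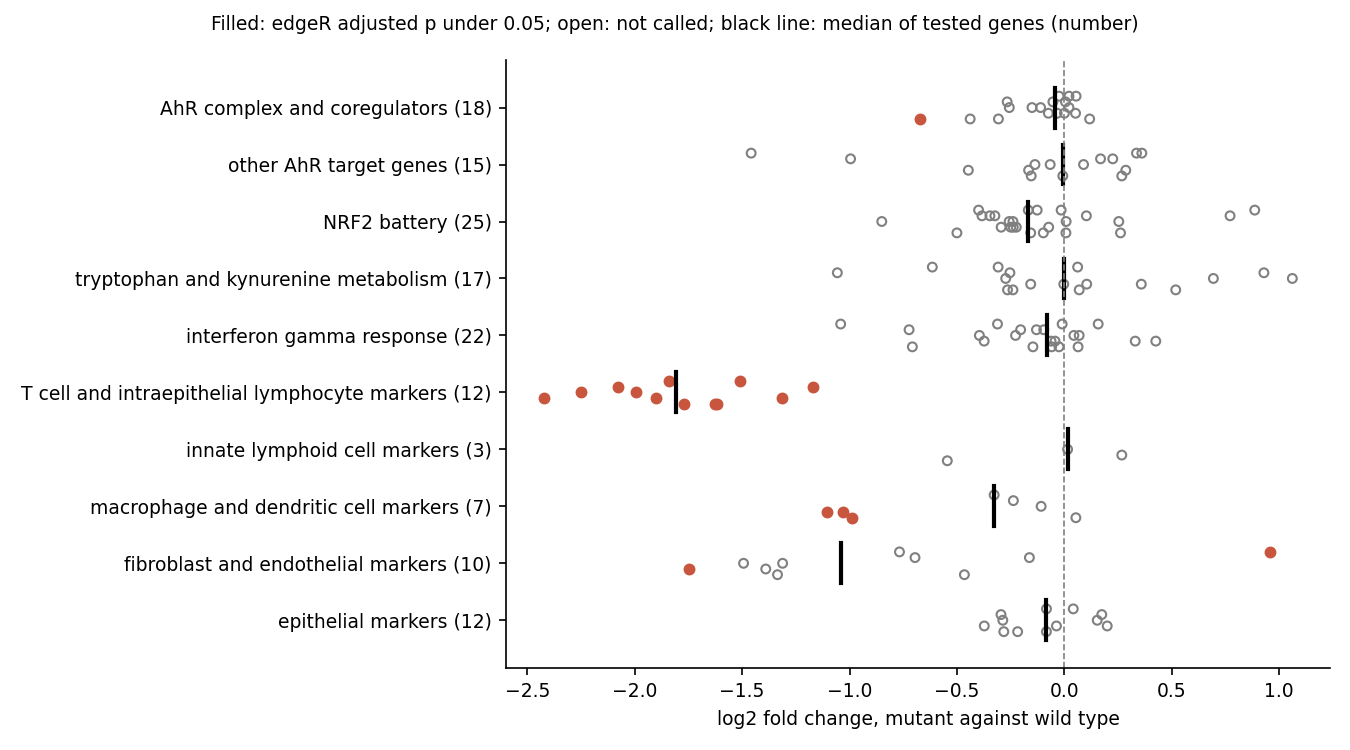
Log2 fold change, mutant against wild type, of every tested gene in the 5 pathway lists and the 5 marker lists (filled, edgeR adjusted p under 0.05; open, not called; black line, median). In the pathway lists 1 gene is filled, and all 12 T cell markers lie between −2.42 and −1.17.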

How the data were processed

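Reads per gene in 6 libraries, 3 wild type and 3 Lingo2-/-, were taken from the deposited count table, which holds raw whole-number counts. Trimmomatic 0.39, STAR, HTSeq, DESeq2 and the build GRCm38 are named in the submitters' processing notes. Which annotation release and which strand setting the counting used is not given in the sources used here. Per the labels' protocols a stranded total RNA kit with ribosomal RNA removal was used. Lines of the table that name no gene were left out of library sizes. Among them, reads in no feature made up between 18.5% and 22.1% of the wild type columns and between 23.6% and 27.6% of the mutant columns.

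The authors' deposited comparison holds their log2 fold changes, p-values, test scores and a normalized signal per library, which in 100.0% of values was the count multiplied by 1 constant for the library (relative tolerance 1e-06). It lists 14338 genes, 6 of the 8 genes among them. Per the file headers these columns carry DESeq2 names.

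Counts were tested with edgeR 4.0.16 (R 4.3.3) by a quasi-likelihood F test between the genotypes, with the filterByExpr filter, TMM scaling and robust dispersion estimates, over 16757 genes with the Benjamini-Hochberg adjustment at 0.05. Each standard error was derived from the log2 fold change and its F statistic, and 95% intervals use the t quantile of the test's degrees of freedom. The script was tested on simulated data. Alternatives were other size factors, filters and dispersions, limma 3.58.1 voom, DESeq2 1.42.0, a replicate block, thinning to the smallest library and leaving out each library.

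The genes, lists and tests were chosen with earlier results of these data known. The rule for named genes takes the 8 genes, from each list up to 6 called genes by smallest p or, where none was called, the 2 with the smallest p, and the 3 nearest profiles of Ahr, Ahrr, Cyp1a1 and Ido1 among tested genes with a mean log2 CPM of at least 1 (prior count 2). Where a gene outside the rule is named, the text says so. For 1 listed gene that the rule selects, values are not reported here, and it stays in the counts. Replicates differed beyond sampling noise, with a chi-square of 8.40 to 19.4 per degree of freedom. Positions came from GENCODE M21 (GRCm38).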

Additional observations from a re-analysis of the deposited data

How the results depend on the processing

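Both falls, of Ahrr and of Ido1, kept their direction under all 16 alternatives. They were called under 9 of the 10 that kept all libraries and missed the threshold with limma voom (adjusted p = 0.0525 and 0.0634), where 0 of the 8 genes were called and 2 had an unadjusted p under 0.05. With 1 library left out the count of these genes called ranged from 0 to 2. Arnt ranged from −0.1058 to 0.0083 with 1 library left out, above 0 without wild type replicate 3, and Wdr19, a near neighbour of Ahr, turned to 0.0252 after thinning. Over all genes 430 changed, against 1493 with no filter, 657 by DESeq2 and, with 1 library left out, from 174 when it was mutant replicate 2 up to 674 when it was wild type replicate 3. The pathway lists had 1 changed gene, against 2 with upper quartile factors, 2 with dispersions that are not robust, 2 after thinning, 10 by DESeq2, 19 with no filter and 0 to 4 with 1 library left out. Marker genes changed numbered 17, and 11 to 16 with 1 library left out. The cause of these differences was not tested.

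The replicate number does not pair the libraries by the labels, and deviations of same-numbered libraries correlated at −0.126, 0.128 and −0.022. With a replicate block the count was 2 for the 8 genes, 2 for the pathway lists, 14 for the marker lists and 360 over all genes. The shallow mutant libraries, with 9 to 18 reads of Ahrr and 0 or 1 of Cyp1a1, limit what can be said of the low genes.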
